A study of Saccharomyces cerevisiae with 30 samples.

Results

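The HSP70 family of Saccharomyces cerevisiae was followed through 10 genes chosen by name, of 7127 features in the table of transcript levels. They are the cytosolic SSA1 (YAL005C), SSA2 (YLL024C), SSA3 (YBL075C) and SSA4 (YER103W), the ribosome-associated SSB1 (YDL229W) and SSB2 (YNL209W), the HSP110-type SSE1 (YPL106C) and SSE2 (YBR169C), the mitochondrial SSC1 (YJR045C) and KAR2 (YJL034W) of the endoplasmic reticulum (ER). The unit is TPM, a level per transcript length in which every library sums to 1000000. The mean level was 1 TPM or more in all 10 genes and in 6369 features, against which they are set below. The levels come from 1 culture of a BF264-15D MATa bar1 strain grown at 38.5 °C in rich YEP medium with dextrose, a mild chronic heat stress, held in G1 with alpha-factor for 150 min and released into fresh medium at the same temperature. Time points are minutes after release, every 10 min from 0 to 290, with 1 library of total RNA at each of the 30. No second temperature was analysed here, so the levels describe the time after release and not a response to heat.

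HSP70 proteins bind exposed hydrophobic stretches of unfolded or newly made proteins and release them in a cycle of ATP hydrolysis. J-domain proteins start that hydrolysis, and nucleotide exchange factors, among them the HSP110-type proteins, reset the chaperone for the next substrate. In yeast, many HSP70 genes are transcribed through the heat shock factor Hsf1, some also through the general stress factors Msn2 and Msn4, and KAR2 also through Hac1 in the unfolded protein response, whereas the SSB genes are known to be regulated together with genes for ribosomal proteins.

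Part of the upstream sequence of 6 members is shown because it holds, in the R64 reference genome, the letters that Hsf1, Msn2 and Msn4 or Hac1 are known to bind. Capitals mark matches to pairs of facing heat shock units, TTCNNGAA or GAANNTTC, to the stress element AGGGG on either strand, and to CAGCGTG, the core of the element that Hac1 binds. Each stretch is written 5′ to 3′ on the strand of its gene and lies within 500 bases before the start codon, at chrI:141675-141800 for SSA1, on the minus strand, chrXII:97654-97737 for SSA2, on the minus strand, chrV:364331-364419 for SSA4, on the plus strand, chrXVI:352439-352466 for SSE1, on the minus strand, chrII:576213-576238 for SSE2, on the minus strand, and chrX:381117-381178 for KAR2, on the plus strand. The reference strain is not BF264-15D, so single bases may differ in the cells that were sequenced.
SSA1: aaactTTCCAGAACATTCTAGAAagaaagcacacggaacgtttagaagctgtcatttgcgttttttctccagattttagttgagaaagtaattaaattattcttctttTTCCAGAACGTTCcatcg
SSA2: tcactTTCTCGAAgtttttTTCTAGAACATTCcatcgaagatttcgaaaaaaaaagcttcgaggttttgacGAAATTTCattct
SSA4: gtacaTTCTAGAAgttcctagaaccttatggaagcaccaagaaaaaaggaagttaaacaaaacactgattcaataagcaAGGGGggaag
SSE1: gatgaTTCTAGAAGATTCcttttccaaa
SSE2: gacgtTTCTAGAAcgtCCCCTtacca
KAR2: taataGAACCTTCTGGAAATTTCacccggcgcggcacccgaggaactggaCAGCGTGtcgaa
In the SSA1 stretch, 3 overlapping pairs begin 364, 359 and 354 bases before the start codon and 2 more at 261 and 256 bases, whereas the SSE2 stretch holds 1 of the 2 pairs of that promoter, 237 bases before the start codon, and an AGGGG on the opposite strand, read as CCCCT, at 226 bases. KAR2 has both a run of heat shock units, with pairs that begin 205, 200 and 195 bases before the start codon, and CAGCGTG at 160 bases.

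Across the 500 bases before each start codon, 7 of the 10 members held TTCNNGAA (SSA1, SSA2, SSA4, SSB2, SSE1, SSE2 and KAR2), compared to 21.2% of 6000 promoters. The facing form GAANNTTC was in 4 members (SSA1, SSA2, SSE1 and KAR2) and in 19.2% of promoters. A run of at least 3 alternating units, which contains overlapping matches to both forms, was in the same 4 members and in 1.48% of promoters. AGGGG was in SSA1, SSA4, SSE2 and SSC1 and in 34.1% of promoters, and CAGCGTG was in KAR2 and in 2.32% of promoters. ACCCNNACA, a form of the Rap1 site common before genes for ribosomal proteins, was in 0 of the 10 members and in 5.47% of promoters. SSA3 and SSB1 held none of these letters in that window. All motifs were searched on both strands, and a match is a description of the letters and not a bound site.

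The coding sequences lie on 8 chromosomes, SSA1 at chrI:139503-141431, SSA2 at chrXII:95566-97485, SSA3 at chrII:84499-86448, SSA4 at chrV:364589-366517, SSB1 at chrIV:44065-45906, SSB2 at chrXIV:252059-253900, SSE1 at chrXVI:350194-352275, SSE2 at chrII:573915-575996, SSC1 at chrX:519638-521602 and KAR2 at chrX:381327-383375 of R64. SSB1 and SSB2 have coding sequences of 1842 bases that were 97.4% identical, with 563 identical bases in a row, and SSA1 and SSA2 were 96.4% identical, with 383 in a row. Reads from such stretches cannot be placed in 1 gene, and the division within these pairs was made by the authors' quantifier, so the level of each gene within these pairs is uncertain. SSA3 and SSA4 were 76.6% identical and SSE1 and SSE2 71.7%, with no identical run longer than 17 and 23 bases.

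Some libraries stood apart. The study names as STRIPEs those time points at which levels across the transcriptome departed from those of their neighbours. By eye they were 100, 140 and 150 min, and its detector function also called 0, 10 and 20 min, which enter every comparison with release below. The authors did not interpolate 0, 10 and 20 min, because they suspected that the release might be a biological origin there. A mild elevation is described at 110 min too, which serves here as a neighbour of 100 min. A factor that sets the median change of all features to about 0 (median of ratios) took the values 0.778, 0.748 and 0.922 at the first 3 time points, and lay between 0.904 and 1.16 from 30 min on. Because TPM are shares of a fixed total, the counts of members called are also given after this scaling where it alters them. The strain labels were read against marker genes. BAR1, which encodes the protease that degrades alpha-factor, was listed at 0 at all 30 time points, as was its neighbour SNL1, which encodes a nucleotide exchange factor of HSP70. STE2, the alpha-factor receptor of MATa cells, ranged from 164 to 343 TPM, compared to 3.21 to 8.49 TPM for STE3, the receptor of MATalpha cells. STE6, another marker of MATa cells, ranged from 35.7 to 72.7 TPM. Of the alpha-factor genes, which mark MATalpha cells, MFALPHA1 ranged from 0.730 to 5.09 TPM. MFALPHA2 ranged from 14.4 to 22.2 TPM and so stood above STE3 throughout. The MATa pheromone genes were less clear, with MFA1 listed at 0 at 28 time points and MFA2 at 5.

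The transcripts of the HSP70 genes were lowest as a group at release and highest 20 to 30 min later. Together the 10 genes amounted to 5547 TPM when released, 12736 TPM after 30 min and 8175 TPM after 290 min, or 0.555%, 1.27% and 0.818% of all transcripts. Of the 10, 6 had their lowest level at 0 min (SSA1, SSA2, SSA4, SSE2, SSC1 and KAR2) and 8 had their highest at 20 or 30 min. The SSB genes had their highest level at 0 min. After scaling, the sum was highest at 20 min and was 1.83-fold above that at 0 min, compared to 2.30-fold from 0 to 30 min before it.

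**Figure D1:**
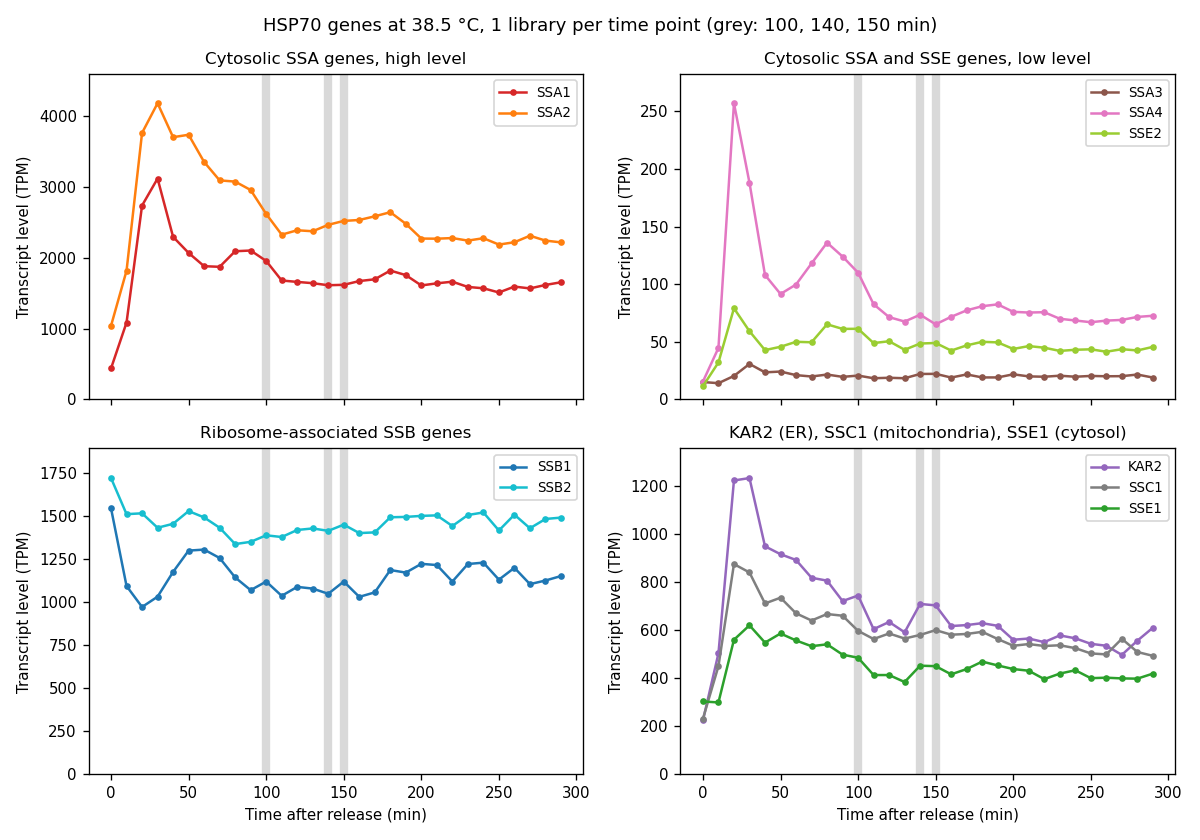
Transcript level in TPM (linear axes from 0) against time after release in min for the 10 HSP70 genes, in 4 panels by level and role, with 1 point per library and grey bands at 100, 140 and 150 min. Levels of 8 genes climb between 0 and 30 min, SSA4 to 257 TPM and SSA2 to 4181 TPM, whereas SSB1 and SSB2 start at their highest values of 1547 and 1723 TPM.

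Among the cytosolic SSA genes, which encode the general HSP70 of the cytosol and nucleus, SSA2 had the highest level of the family. SSA2 ranged from 1040 TPM at 0 min to 4181 TPM at 30 min with a median of 2427 TPM, and its mean ranked 71st among all features. SSA1 ranged from 438 TPM at 0 min to 3118 TPM at 30 min with a median of 1660 TPM. Both genes were thus high at every time point, and SSA1 changed over a wider range, 7.12-fold compared to 4.02-fold for SSA2, or 5.27-fold and 3.05-fold after scaling. SSA4, the strongly stress-inducible form, went from 15.5 TPM at 0 min through 44.7 TPM to 257 TPM at 20 min, with a median of 75.6 TPM. Its 16.6-fold range was the widest of the 10, and 14-fold after scaling. SSA3, the other inducible form, stayed between 14.1 TPM at 10 min and 30.8 TPM at 30 min with a median of 20.1 TPM. Its range of 2.19-fold was 1.58-fold after scaling.

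The SSE genes encode HSP110-type exchange factors of the cytosolic HSP70 proteins. SSE1, the main form, ranged from 299 TPM at 10 min to 620 TPM at 30 min with a median of 435 TPM, a 2.07-fold range, or 1.57-fold after scaling. SSE2, the stress-inducible form, ranged from 11.5 TPM at 0 min to 79.1 TPM at 20 min with a median of 46.0 TPM, a 6.86-fold range, or 5.79-fold after scaling. The minor gene of the pair thus varied over the wider range, as SSA4 did beside the abundant SSA1 and SSA2.

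In the organelles, KAR2, the HSP70 of the ER lumen known as BiP in mammals, ranged from 224 TPM at 0 min to 1233 TPM at 30 min with a median of 618 TPM. SSC1, the main HSP70 of the mitochondrial matrix and part of the motor that pulls precursors in, ranged from 231 TPM at 0 min to 875 TPM at 20 min with a median of 572 TPM. The pair began at nearly the same level, and KAR2 was the higher of the pair at 28 of 30 time points. The highest level was 5.51-fold above the lowest for KAR2 and 3.80-fold for SSC1, or 4.61-fold and 3.20-fold after scaling.

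The SSB proteins sit on ribosomes and bind nascent chains. Unlike the other 8 members, SSB1 and SSB2 were highest at 0 min. SSB1 went from 1547 TPM at 0 min to its lowest level of 973 TPM at 20 min, with a median of 1129 TPM. SSB2 was 1723 TPM at 0 min and lowest at 80 min with 1339 TPM, around a median of 1454 TPM. Their ranges of 1.59-fold and 1.29-fold were the narrowest of the 10 genes in TPM, and 2.10-fold and 1.82-fold after scaling, when SSE1 (1.57-fold) and SSA3 (1.58-fold) had narrower ones.

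By median level the order was SSA2, SSA1, SSB2, SSB1, KAR2, SSC1, SSE1, SSA4, SSE2 and SSA3. The order of neighbours held at all 30 time points for SSA2 over SSA1, SSB2 over SSB1, SSE1 over SSA4 and SSA4 over SSE2. SSC1 was above SSE1 at 29 time points, and SSE2 above SSA3 also at 29. SSA1 was above SSB2 at 28 time points and SSB1 above KAR2 at 28. The exceptions included 0 min, where SSB2 and SSB1 were the 2 highest members and SSA3 stood above SSE2. The spread between single libraries can be read from the last 100 min, when the levels were steadiest. Over the 10 time points from 200 to 290 min, SSA1 was at 1601 ± 45.8 TPM (SD over time points of 1 culture, n = 10), SSA2 at 2251 ± 37.0, SSB2 at 1482 ± 37.2, SSB1 at 1173 ± 50.1, KAR2 at 556 ± 29.4 and SSC1 at 524 ± 22.6 TPM. KAR2 and SSC1 thus differed by less than the sum of their SDs late in the series, while the other neighbours in the order were further apart than that. SSE1 was at 413 ± 16.5, SSA4 at 71.4 ± 3.37, SSE2 at 43.7 ± 1.55 and SSA3 at 20.3 ± 0.852 TPM. In every gene the SD was between 1.64% and 5.29% of the mean.

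To set the change after release against all features, the means of log2(TPM + 1) at 20 and 30 min and at 0 and 10 min were compared. A feature was called when the difference was at least 1.5-fold and no time point of one window overlapped the other, which is a description, since time points of 1 culture are not replicates and no p can be given. This comparison was added after the levels had been seen. Of the 10 members, 8 were called higher, compared to 24.4% of the features tested, and 0 were called lower, compared to 1.46%. The median log2 change was 1.47 over the members and 0.35 over all features. SSA4 was higher by 3.0 on the log2 scale, from 15.5 and 44.7 TPM at 0 and 10 min to 257 and 188 TPM at 20 and 30 min. SSA1 was higher by 2.08, KAR2 by 1.87, SSE2 by 1.77, SSA2 by 1.53 and SSC1 by 1.41. SSE1 was higher by 0.97 and SSA3 by 0.75. SSB1 had a change of -0.38 with no overlap, from 1547 and 1095 TPM to 973 and 1033 TPM, and SSB2 one of -0.13 with overlapping time points, and neither was called.

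After scaling, 6 members were called higher, compared to 5.43% of features, and 1 was called lower, compared to 7.54%. SSE1, at 0.58, and SSA3, at 0.38, were no longer called, and SSB1 was called lower at -0.76. The 6 that stayed were SSA1 (1.69), SSA2 (1.14), SSA4 (2.63), SSE2 (1.40), SSC1 (1.02) and KAR2 (1.48). Without 30 min 7 members were called, since SSA3 was then at 0.46, and without 10 min 9, with SSB1 at -0.63. The shares of all features called without these time points are not given here. Without 0 min the log2 change was 1.43 for SSA1, 2.27 for SSA4 and 1.07 for SSE2.

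For 6 members the difference built up over both 10 min steps after release. From 0 to 10 min the log2 change was 1.47 for SSA4, 1.40 for SSE2, 1.31 for SSA1, 1.16 for KAR2, 0.96 for SSC1 and 0.80 for SSA2, while the median of all features was -0.07. From 10 to 20 min it was 2.49 for SSA4, 1.33 for SSA1, 1.28 for KAR2, 1.27 for SSE2, 1.05 for SSA2 and 0.96 for SSC1, against a median of 0.28. After scaling the values of these 6 genes were 0.86 to 1.54 for the first step and 0.66 to 2.20 for the second. SSE1 stayed level over the first step at -0.02 and changed by 0.90 over the second. Over the whole 20 min SSA4 ranked 14th of the 6369 features with a log2 change of 3.96, SSE2 35th with 2.68, SSA1 36th with 2.64 and KAR2 42nd with 2.44. SSC1 ranked 87th and SSA2 97th. SSE1 ranked 647th, and 32.9% of features had a change at least that of SSA3 (0.41). At the other end, 94.3% of features had a change at least that of SSB1 (-0.67).

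The genes parted again after 20 min. From 20 to 30 min SSA4 changed by -0.45 and SSE2 by -0.41 on the log2 scale, changes that 98.1% and 97.8% of features equalled or exceeded, while SSA3 changed by 0.57 and the other members by -0.08 to 0.19. The median of all features was 0.21. After scaling SSA4 was at -0.68, SSE2 at -0.63 and SSA3 at 0.35, and the other members were all below 0, from -0.31 to -0.04. SSA4 was at 108 TPM by 40 min and SSE2 at 42.8 TPM, whereas SSA2 was still at 3736 TPM at 50 min and SSE1 at 586 TPM. After scaling, SSA1, SSA2, SSE1 and KAR2 also had their highest level at 20 min, so that the later peak of these 4 genes in TPM depends on the scaling, and SSA3 alone stayed highest at 30 min among the genes that were higher after release.

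**Figure D2:**
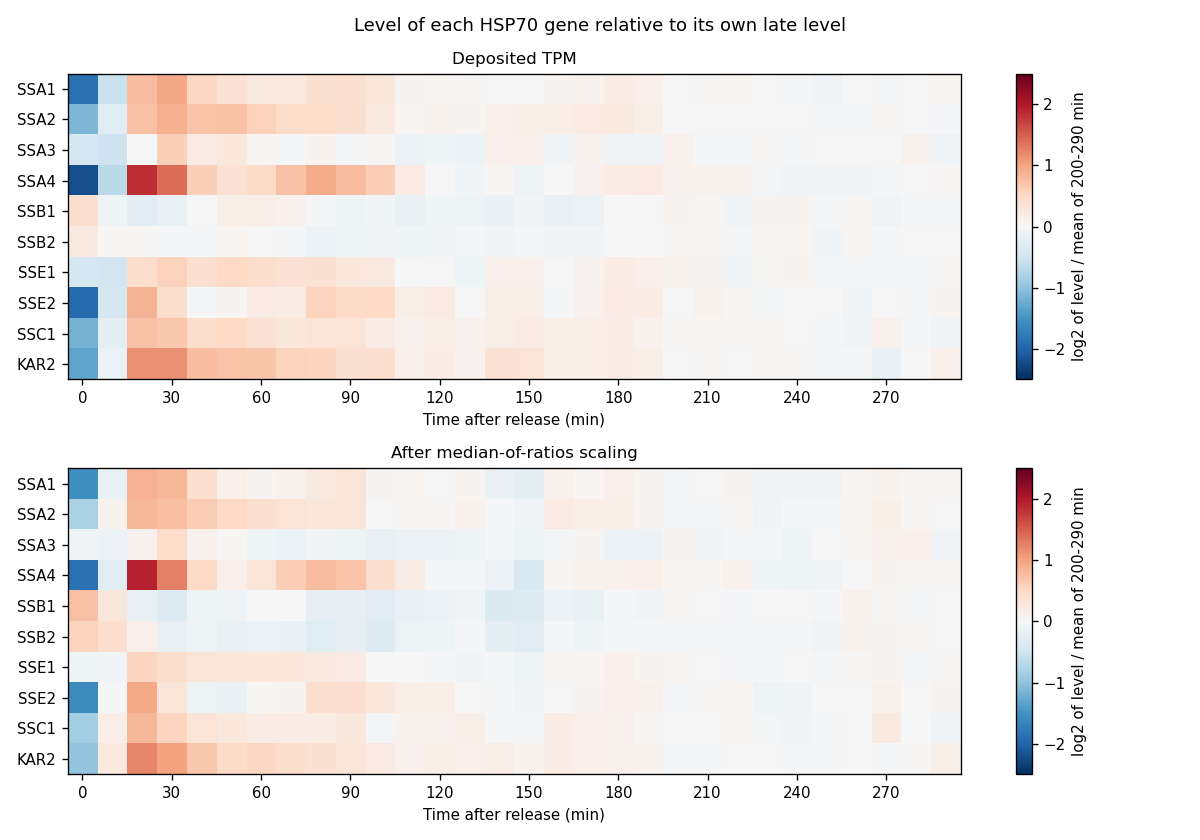
Level of each of the 10 genes (rows) at each time point in min (columns) as log2 of its ratio to its own mean over 200 to 290 min, in deposited TPM and after median-of-ratios scaling. Cells are blue at 0 min and red at 20 and 30 min in SSA1, SSA2, SSA4, SSC1 and KAR2 on both scales, and the SSB rows are red at 0 min.

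A coarser comparison caught less of this. From 0, 10 and 20 min to 30, 40 and 50 min, 1 member was called higher (SSA3), compared to 22.2% of features, and 0 lower, compared to 0.659%, because 20 min already held the high levels. After scaling SSA3 was at 0.23 and 0 members were called. Without 20 min 8 members were called, and the share of all features called without that time point is not given here.

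From 30 to 50 min to 60 to 80 min, 0 members were called in either direction, where 1.27% of features were called higher and 0.848% lower, and the log2 changes ran from -0.34 for SSA1 to 0.16 for SSE2. From 60 to 80 min to 110 to 130 min, 1 member was called lower, SSA4, from a mean of 118 TPM to one of 73.9 TPM (-0.66), compared to 2.17% of features, and 0 were called higher, compared to 1.02%. KAR2 (-0.46), SSE1 (-0.43) and SSA2 (-0.42) were next and did not reach 1.5-fold. After scaling SSA4 was at -0.53 and was not called, nor was it called without 80 min.

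Late in the series the levels were steady. Between 160 to 200 min and 250 to 290 min, 0 members were called, where 0% of features were called higher and 0.0314% lower, and the log2 changes ran from -0.16 for SSA2 to 0.01 for SSA3, SSB1 and SSB2. Set against 60 to 80 min, which also served the comparison before, the last 5 time points had 2 members called lower, compared to 4.52% of features, and 0 higher, compared to 0.597%. These were SSA4, from a mean of 118 TPM to one of 69.7 TPM (-0.74), and KAR2, from 839 TPM to 548 TPM (-0.61). Neither was called after scaling, at -0.55 and -0.42, and without 60 min or without 270 min 1 of the 2 was called. Levels at 290 min remained above those at 0 min for 8 genes and below them for SSB1 and SSB2. Relative to the mean of 200 to 290 min, the level at 0 min was 0.217-fold for SSA4, 0.264-fold for SSE2, 0.274-fold for SSA1, 0.403-fold for KAR2, 0.440-fold for SSC1 and 0.462-fold for SSA2.

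**Figure D3:**
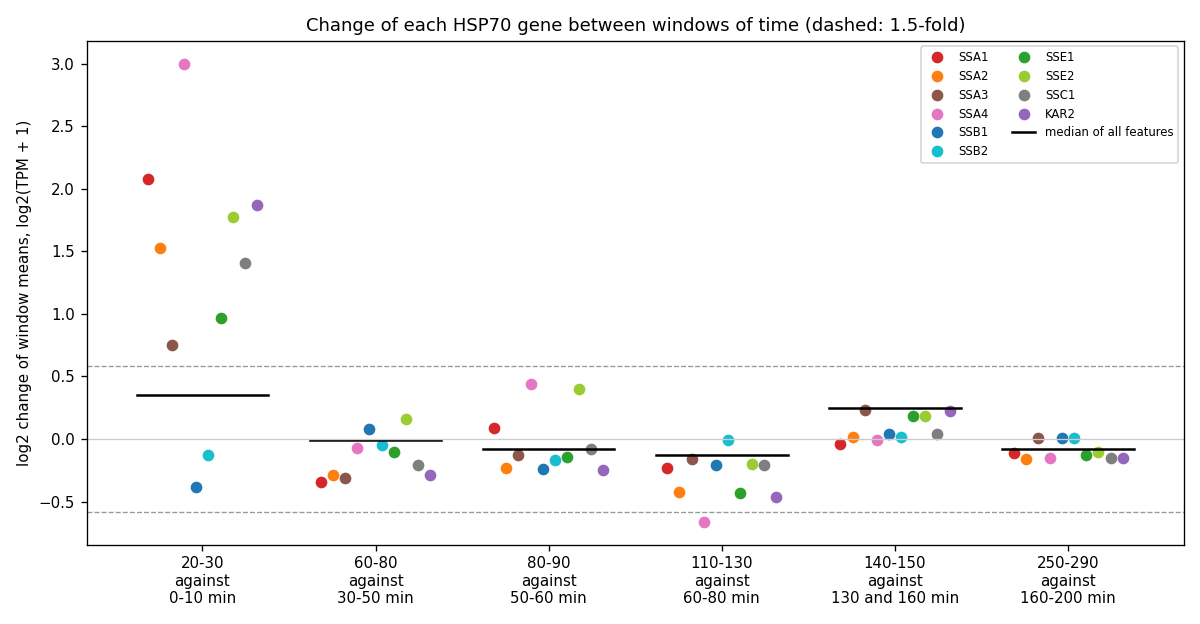
Difference of the window means of log2(TPM + 1) for each of the 10 genes (coloured points) in 6 comparisons of time windows, with the median of all 6369 features tested (black bars) and dashed lines at 1.5-fold. In the comparison of 20-30 with 0-10 min 8 genes lie above the upper line, and SSA4 reaches 3.0, and among the 5 later comparisons drawn 1 point, SSA4 at -0.66, lies past a line. The comparison of 250-290 with 60-80 min is not drawn.

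A smaller maximum followed in part of the family. SSA4 went from 91.5 TPM at 50 min to 136 TPM at 80 min, and SSE2 from 42.8 TPM at 40 min to 65.2 TPM at 80 min. SSA1 went from 1872 TPM at 70 min to 2102 TPM at 90 min. Comparing 80 and 90 min with 50 and 60 min, a choice also made after the levels were seen, 0 members reached the call, where 2.90% of features were called higher and 2.31% lower. The log2 change was 0.44 for SSA4, 0.40 for SSE2 and 0.09 for SSA1, and from -0.25 to -0.08 for the other 7. The windows overlapped in SSA3 alone, so a lack of overlap does not set these 3 genes apart. For landmarks of the cell cycle in the same libraries, CLB2, a mitotic cyclin, was highest at 60 min and SIC1, an inhibitor made at the exit from mitosis, at 80 min. The other landmarks were less clear. CLN2, a G1 cyclin, was at 72.8 TPM at 10 min and again at 72.7 TPM at 140 min. FUS1, a gene induced by pheromone, was at 41.9 TPM at 0 min, below its median of 47.0 TPM, and highest at 100 min with 66.0 TPM. Both 100 and 140 min are STRIPEs.

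The STRIPEs were set against their neighbours in time. At 140 and 150 min, set against 130 and 160 min, 0 members were called, where 6.56% of features were called higher and 0.675% lower. With such low shares, 0 of 10 says little about the members. SSA3, SSE1, SSE2 and KAR2 were higher at both time points than at both neighbours, KAR2 with 709 and 703 TPM compared to 591 and 617 TPM. SSA1 was lower at both, with 1612 and 1618 TPM compared to 1641 and 1671 TPM. The share of all features without such overlap is not given here, so these members are not set apart by it. The log2 change ran from -0.04 for SSA1 to 0.23 for SSA3, and its median was 0.04 for the members and 0.25 for all features. After scaling, which lowers these 2 libraries, the 10 values ran from -0.29 to -0.01. At 100 min, set against 90 and 110 min, 0 members were called, where 3.83% of features were called higher and 0.864% lower, with changes of -0.03 to 0.17, and of -0.21 to -0.01 after scaling. Leaving out 100, 140 and 150 min changed the lowest or highest level in TPM of 0 members. After scaling, the lowest levels of SSA3 and SSB2 were at 100 min, that of SSB1 at 140 min and that of SSE1 at 150 min. The scaled ranges of these genes thus rest on STRIPEs.

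The paralogs did not keep a fixed ratio. SSA4 made up 50.7% of the sum of SSA3 and SSA4 at 0 min, 92.6% at 20 min and 77.8 ± 0.998% over 200 to 290 min (SD, n = 10 time points). SSA1 made up 29.6% of SSA1 and SSA2 at 0 min, 42.1% at 20 min and 41.6 ± 0.703% late, and stayed below SSA2 throughout. SSB1 made up 47.3% of its pair at 0 min, 39.1% at 20 min and 44.2 ± 0.616% late. SSE1 made up 96.3% of its pair at 0 min, 87.6% at 20 min and 90.4 ± 0.392% late. In each pair the share at 0 min lay further from the late mean than the late spread. A share within 1 library does not change with the scaling, but in the SSA1 and SSB1 pairs it rests on how reads from nearly identical sequence were divided.

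**Figure D4:**
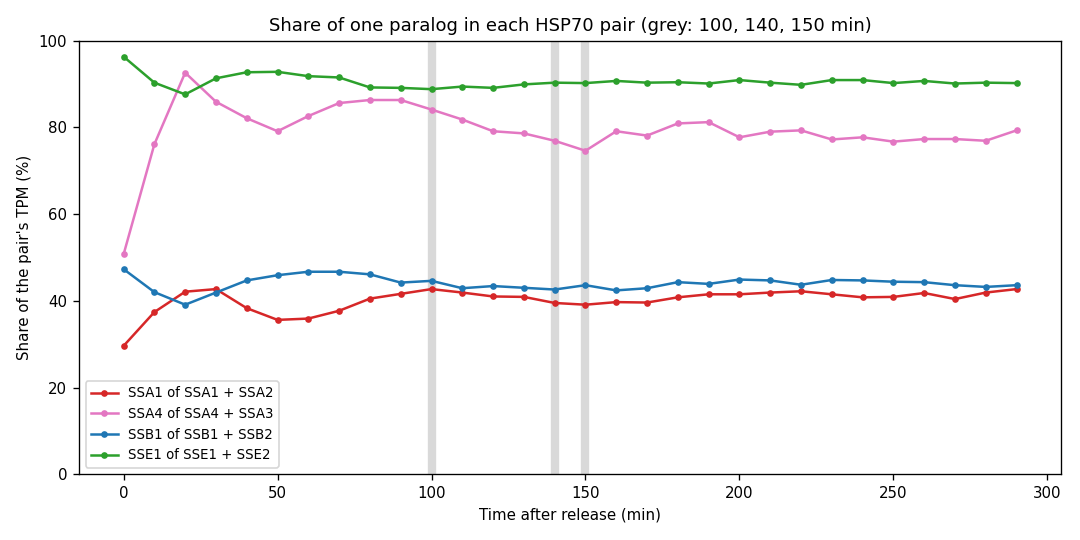
Share of 1 paralog in the summed TPM of its pair, in percent from 0 to 100, against time after release in min, for 4 pairs with 1 point per library and grey bands at 100, 140 and 150 min. The SSA4 share goes from 50.7% to 92.6% between 0 and 20 min and the SSE1 share from 96.3% to 87.6%, and all 4 curves are nearly flat after 200 min.

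Over the 30 time points, the 8 members other than the SSB genes had like courses. Pearson's r of log2(TPM + 1) over their 28 pairs ran from 0.54 for SSA3 and SSE2 to 0.97 with a median of 0.90. SSB1 and SSB2 had an r of 0.69 with each other, and of -0.69 to -0.15 with the other 8, with a median of -0.51 over 16 pairs. These values describe 1 culture whose libraries share a total, so no p is given. Among the 8 the median was 0.84 after scaling and 0.83 without 0, 10 and 20 min, but SSA3 stood further off after scaling, with r of 0.14 to SSE2, 0.38 to SSA4 and 0.44 to SSA1. The lowest of the 28 pairs was 0.25 without 0, 10 and 20 min and -0.03 with both changes. Between the SSB genes and the rest the median was -0.49 after scaling and -0.07 without 0, 10 and 20 min. With both changes it was -0.27, and 15 of the 16 pairs were below 0. In the authors' table of corrected scores the medians were 0.76 and -0.22, and the lowest of the 28 pairs was 0.10.

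**Figure D5:**
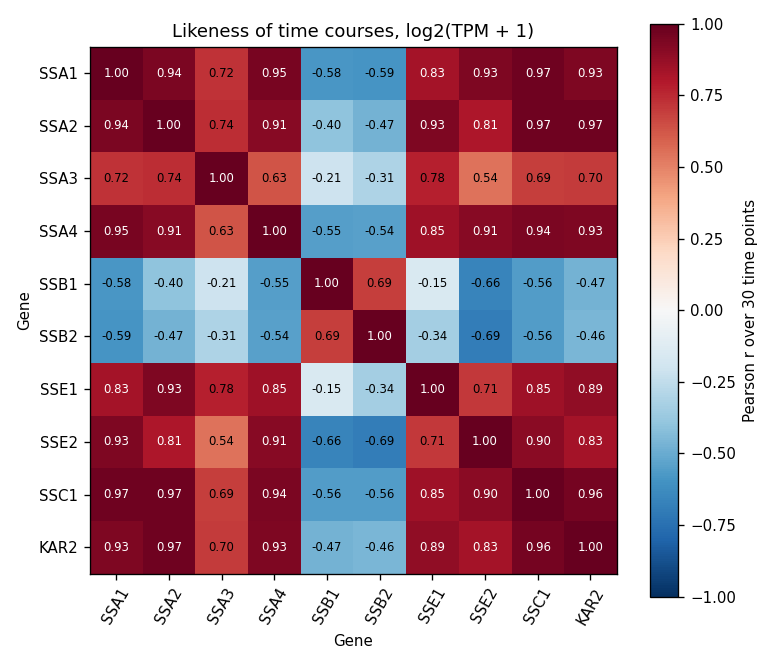
Pearson's r between the time courses of each pair of the 10 genes, from log2(TPM + 1) over 30 time points, on a colour scale from -1 to 1. SSB1 and SSB2 form rows of negative values from -0.69 to -0.15 with the other 8 genes, which are positive with each other from 0.54 upward.

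The SSB genes were also set beside the genes for cytosolic ribosomal proteins, of which 135 were tested. The median of these genes was 2507 TPM at 0 min and lowest at 40 min with 1772 TPM. Its r with SSB2 was 0.51 and with SSB1 0.29, and after scaling 0.93 and 0.79. In TPM from 30 min on it was 0.18 with SSB2 and 0.00 with SSB1. Scaling divides both courses by the same factor in each library, which can raise r by itself, and how much was not tested. The 3 features most like SSB2 in TPM, named below, also had a higher r with it after scaling, from 0.897 to 0.925. With the other 8 members r was -0.88 to -0.66, and -0.55 to -0.14 after scaling. At 20 and 30 min against 0 and 10 min, 0 of the 135 genes were called higher and 6 lower, with a median log2 change of -0.33. Of all features, 24.4% were called higher and 1.46% lower. After scaling 115 of the 135 genes were lower, with a median of -0.72, beside 7.54% of all features. The values of SSB1 and SSB2 in that comparison, -0.38 and -0.13, and -0.76 and -0.52 after scaling, lay on either side of these medians.

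The partners of the HSP70 proteins were counted in the same comparison of 20 and 30 min with 0 and 10 min. They stand beside the 24.4% of features called higher, and 5.43% after scaling. Of 21 J-domain genes, 8 were called higher, and 2 after scaling. They include the main cytosolic partners of the SSA proteins, SIS1 (1.68, from a mean of 168 TPM to 419 TPM) and YDJ1 (1.25, from 280 to 613 TPM), and MDJ1, the partner of SSC1 in the matrix (1.44, from 71.2 to 168 TPM). JJJ3, a J-protein of diphthamide synthesis, was at 1.16. ZUO1, the ribosome-bound partner of the SSB proteins, had a log2 change of 0.06. After scaling, YDJ1 (0.87) and JJJ3 (0.82) were the J-domain genes still called, while SIS1 (1.29) and MDJ1 (1.06) kept larger changes and lost the call because their time points overlapped. The exchange factors were called higher in 3 of 4 genes tested, FES1 of the cytosol (1.39) and SIL1 (0.75) and LHS1 (0.70) of the ER, while MGE1 of the matrix had 0.51. After scaling 0 of 4 were called, although FES1 was at 1.01 with overlapping time points. Among the 4 other HSP70-class genes, LHS1 was called, and SSZ1, which works with ZUO1 on the ribosome, had 0.12.

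In the same comparison 24.4% of all features were called higher, and 5.43% after scaling. Of 20 genes for heat shock chaperones and known Hsf1 targets, a list that shares YDJ1, SIS1, APJ1, FES1 and MDJ1 with those above, 19 were called higher, and 14 after scaling. The largest changes were in HSP82, an HSP90 gene (2.83, from a mean of 198 TPM to 917 TPM), BTN2, of aggregate sorting (2.41), HSP60, the mitochondrial chaperonin (2.22), and HSP104, the disaggregase that works with HSP70 (2.18). HSF1 itself was the exception at 0.37. Of 13 genes of the unfolded protein response and ER folding, 4 were called higher, and 2 after scaling. In TPM that count is near the share of all features. ERO1, the oxidase of disulphide formation, was at 1.62 and MPD1, a disulphide isomerase relative, at 1.05. PDI1, the abundant isomerase, was at 0.19, and the transcript of HAC1 was at -0.45, from a mean of 1127 TPM to 812 TPM, and was called lower after scaling at -0.84. KAR2, at 1.87, was thus above all 13. Of 9 genes for import partners of SSC1, 2 were called higher, MDJ1 and PAM16 (0.66), also near the share of all features. After scaling 0 were called, when MDJ1 was at 1.06 with overlap and PAM16 at 0.28.

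The genes whose course was most like that of each member were sought among 5137 features whose mean reached 10 TPM, by r over the 30 time points. For SSA1 they were AHA1 (0.980) and STI1 (0.965), both cofactors of HSP90, and HSP60 (0.972). For SSA2 they were TAH11 (0.982), a replication licensing factor, IDH1 (0.947), a mitochondrial isocitrate dehydrogenase subunit, and YDJ1 (0.944). SSC1 was nearest to YDJ1 (0.970), TAH11 (0.969) and AHA1 (0.967), and KAR2 to APA1 (0.958), of nucleotide metabolism, YDJ1 (0.958) and TAH11 (0.953). For SSA4 they were YDJ1 (0.919), TAH11 (0.917) and CPR6 (0.916), an HSP90 cofactor. SSE2 was nearest to OPI10 (0.973), HSP104 (0.955) and STI1 (0.950), and SSE1 to GGA2 (0.940), a Golgi sorting adaptor, SNQ2 (0.925), a drug efflux pump, and YME1 (0.917), a mitochondrial protease. TAH11 and YDJ1 were thus each named for 4 members. TAH11 is the divergent neighbour of SSC1, with 445 bases between the coding sequences, and ranged from 38.8 TPM at 0 min to 103 TPM at 20 min. For SSA3 the values were lower, with TFC6 (0.867), a subunit of the factor TFIIIC, CDC11 (0.833), a septin, and GLO3 (0.833), of vesicle transport. SSB1 was nearest to BUD20 (0.814), a factor of ribosome export, YEF3 (0.808), a translation elongation factor, and NOP2 (0.803), an rRNA methyltransferase, and SSB2 to TIF3 (0.747), a translation initiation factor, TOS1 (0.743), of the cell wall, and URA6 (0.738), of pyrimidine synthesis. After scaling, 14 of these 30 genes were again among the 3 nearest.

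The members were last placed in a ranking of periodic genes, by the highest Kendall tau with cosine curves of 60 to 120 min period. In the top 1000 of 6369 features, which is 15.7% of them, 1 member was found, SSA4 at rank 324 with a tau of 0.48. Its best period was 120 min, the longest tried, so longer courses were not told apart from it. SSE1 ranked 1443rd and SSA1 1994th, and SSB2 was lowest at rank 5855 with a tau of 0.23. After scaling SSA4 was at rank 1096 and SSE1 at rank 431, both with a best period of 120 min.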

How the data were processed

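STAR was used by the authors for alignment and RSEM for quantification, and the deposited TPM are given per feature and time point, together with a table of corrected Z-scores, which the deposited headers do not explain. The labels name the R64 build and no tool versions. TPM sum to 1000000 per library and keep no depth, so no counting interval is given. Groups are the time labels, with 1 sample each and no test. Window means of log2(TPM + 1) were compared in Python 3.11.15 (numpy 2.4.6, scipy 1.17.1, pandas 2.3.3), and a change was called at 1.5-fold without overlap, for features whose mean reached 1 TPM. The calls were tested on simulated data with independent noise in each feature. The windows compared there held no shift of whole libraries, so the effect of such shifts on the calls was not tested. Coordinates, promoters (500 bases) and coding identity were read from R64 with Biopython 1.88, where 6047 features matched by locus tag. Genes named were the members, up to 4 called genes with the largest changes and key genes of each list, and the 3 most alike features. The members and lists were chosen with earlier results of these data known. Alternatives were median-of-ratios scaling, a pseudocount of 0.1 TPM, no filter, a fold of 2, omitted time points and the deposited scores. Protein sequences were not used here.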

Additional observations from a re-analysis of the deposited data

How the results depend on the processing

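No paired analysis was possible because there is 1 library per time and no replicate number. The number of members called at 30 to 50 min against 0 to 20 min was 1, and 0 after scaling or at a fold of 2, and 0 to 8 with single time points left out. At 110 to 130 min against 60 to 80 min it was 1, 0 after scaling or at a fold of 2, and 0 to 1 with time points left out. At 250 to 290 min against 60 to 80 min it was 2, 0 after scaling or at a fold of 2, and 1 to 2 with time points left out. At 20 to 30 min against 0 to 10 min it was 8, with 7 to 9 with time points left out, 7 after scaling (6 higher and 1 lower) and 6 at a fold of 2. The median correlation of the SSB genes with the other members was -0.51, -0.49 after scaling, -0.07 without 0, 10 and 20 min, -0.27 with both and -0.22 in the corrected scores, and 14 of 30 most alike genes were found again after scaling. The cause of these differences was not tested. For the counts with time points left out and those at a fold of 2, the share of all features called is not given. No called value changed direction under the alternatives run. TPM keep no depth, 1 library stands for each time point, and all come from 1 culture.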

Other observations

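The general stress genes under Msn2 and Msn4 were counted in the same comparisons. Of 15 such genes, 6 were called higher at 20 and 30 min against 0 and 10 min, and 4 after scaling, with median log2 changes of 0.60 and 0.22, beside 24.4% and 5.43% of all features. At 80 and 90 min against 50 and 60 min, 11 were called higher on either scale, with a median of 1.12 in TPM, beside 2.90% of all features, among them GPH1, glycogen phosphorylase (2.25, from a mean of 12.4 TPM to 62.5 TPM), HXK1, a hexokinase (1.97), HSP12, a membrane-associated stress protein (1.5), and PGM2, phosphoglucomutase (1.5). At 110 to 130 min against 60 to 80 min, 9 were called higher, beside 1.02% of all features, and HSP12 was at 2.02. In the last comparison, 250 to 290 min against the same 60 to 80 min, 7 were called higher, beside 0.597% of all features, where SSA4 and KAR2 were called lower.

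The 4 members with AGGGG in their promoter window were also the 4 with the highest change at 80 and 90 min against 50 and 60 min. Both the time windows and this grouping were chosen after the values were seen, and the grouping was not tested. Their log2 changes ran from -0.08 (SSC1) to 0.44 (SSA4), and those of the 6 members without AGGGG from -0.25 to -0.13. After scaling the ranges were 0.00 to 0.52 and -0.16 to -0.05.

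The feature YAL004W, whose systematic name adjoins that of SSA1 (YAL005C), was listed at 0 TPM at all 30 time points. YDL228C, whose systematic name adjoins that of SSB1 (YDL229W), ranged from 348 TPM at 80 min to 809 TPM at 10 min and was at 722 TPM at 0 min. It has no entry in the R64 gene table used here, so whether it shares reads with SSB1 was not tested. The level of SSB1 and its share in its pair, above all at 0 and 10 min, carry that limit.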
